A study of Mus musculus with 8 samples.

Results

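Transcript levels of the tumour suppressor gene Trp53, which encodes p53, and of 9 genes that p53 is known to act on were compared between Lats2-/- and Lats2+/+ mouse embryonic fibroblasts (MEFs). The members were chosen by gene name: every gene probe of the array whose listed name was Trp53, Mdm2, Ccng1, Sesn2, Phlda3, Gdf15, Bax, Bbc3, Perp or Trp53inp1. They have 15 of the 41174 gene probes, and all 15 were among the 22642 probes, for 14716 genes, that passed the filter on dim signals. The rule is by name and uses no threshold on the data, but the genes were picked with earlier results of these data known.

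p53 is a transcription factor that is held low by the ubiquitin ligase Mdm2, itself a p53 target, and that accumulates when Mdm2 is restrained. It then raises genes for cell cycle arrest, DNA repair, antioxidant defence and apoptosis, and in cultured embryonic fibroblasts it is known for the arrest that follows stress and prolonged passage. Lats2, a protein kinase of the Hippo pathway, is known to bind Mdm2, which makes the p53 targets a readout of interest in its absence.

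RNA came from 6 extracts, 1 Lats2-/- and 1 Lats2+/+ clone of C57BL/6J MEFs from each of 3 litters numbered 112, 116 and 121. All cells were grown in DMEM with fetal bovine serum and none was treated. Each Agilent array carried both extracts of a litter in 2 dyes, Cy3 and Cy5, with 2 arrays for litters 112 and 116 and 4 for litter 121, and the dyes were swapped between arrays. The Lats2-/- cells are germline knockout cells that the study took from earlier work, and a genotype is represented by 1 clone per litter, so that clone and genotype cannot be told apart within a litter.

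A value is the log2 ratio of Lats2-/- over Lats2+/+, where 1 is a doubling, averaged over the arrays of a litter, and n is the 3 litters. Median intensities were 60.9 to 68.2 in green and 83.1 to 94.2 in red, and the share of gene probes well above background was 53.5% to 60.3% for Lats2-/- and 52.9% to 61.3% for Lats2+/+. Among the 4 Lats2 probes, A_52_P425064 was lower in the Lats2-/- extract of every litter, at -1.33, -1.05 and -0.56 in litters 112, 116 and 121. The other 3 probes were lower in litters 112 and 116 but higher in litter 121, at 0.80 to 1.17, so a direction in litter 121 belongs to the extract labelled Lats2-/-. Which probes lie in the deleted part is not given in the sources used here.

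The fibroblast identity was checked on 8 markers, of which all but Pdgfra were well above background in all 6 extracts. The Lats2-/- extract of litter 121 was the lowest of the 6 for Thy1 and Pdgfra. In that litter Thy1 differed by -3.66, Col3a1 by -3.42, Col1a1 by -1.13 and Col1a2 by -0.72. Pdgfra read 6.30 as log2 signal in Lats2-/-, well above background on 2 of 4 arrays, against 11.26 in its Lats2+/+ littermate. The Lats2+/+ extract of litter 116 was the lowest for Col3a1, Col1a1 and Col1a2, at log2 signals of 10.34, 13.97 and 15.57. In litter 116 the collagen Col3a1 was higher in the Lats2-/- extract instead, by 3.70, Col1a1 by 2.75 and Col1a2 by 1.84. Fn1 was higher there by 2.40 and Thy1 by 2.05, while Vim was lower, at -1.19, and Pdgfra was nearly level at 0.13. Vim, Pdgfrb and Fn1 were nearly level in litter 121, at -0.07, -0.14 and 0.07. The part of these differences in the p53 target values was not tested.

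The promoters of the members are shown because p53 acts through a sequence in its targets, a pair of 10-base units known as the p53 decamer. RefSeq windows on GRCm38.p6, from 250 bases before to 50 bases after each annotated start, were given for 8 of the 10 members, with 11 windows in all. Trp53inp1 and Perp had no entry. The decamer consensus, whose pattern reads the same on both strands, was found in 4 of the 11 windows, against 8.36% of all 32851 windows. The stretches that hold it are printed 5′ to 3′ on the gene's strand, with the 10 matching bases in capitals and 10 bases on either side.
Mdm2: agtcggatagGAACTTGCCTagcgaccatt
Ccng1: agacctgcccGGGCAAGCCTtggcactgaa
Bax: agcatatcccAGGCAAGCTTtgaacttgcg
Trp53: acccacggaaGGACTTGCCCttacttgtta
The Mdm2 stretch lies at chr10:117710925-117710954 on the minus strand, and its decamer is 186 to 177 bases before the start. The Ccng1 stretch is at chr11:40755452-40755481 on the minus strand, with the decamer 185 to 176 bases before the start. The Bax stretch is at chr7:45467080-45467109 on the minus strand, with the decamer 201 to 192 bases before the start, and the Trp53 stretch is at chr11:69580274-69580303 on the plus strand, with the decamer 75 to 66 bases before it. A complete site, with 2 decamers at most 13 bases apart, was in 0 of the 11 windows and in 0.0731% of all windows. A match describes the letters in the window and is not evidence of binding, and response elements outside these windows were not searched.

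Across the 10 members, taking the brightest kept probe of each gene, 8 had a mean ratio above 0 and 2 had one below it, beside 7796 of all 14716 genes above 0, and the median was 0.32 against 0.01 over all genes. The genes that stood higher in the Lats2-/- extract of all 3 litters were Ccng1, Trp53inp1, Sesn2 and Phlda3, which is 4 of 10, although with median centring in place of loess Phlda3 turned to -0.020 in litter 116. Sesn2 was nearly level in litter 121, at 0.035, with arrays on either side of 0, and the dimmer Ccng1 probe was below 0 in litters 112 and 121. Over all kept probes 15% were higher in all 3 litters. Trp53 was the 1 member lower in all 3 litters, against 14.8% of all kept probes. By litter, 7 of the 10 members were higher in Lats2-/- in litter 112, 5 in litter 116 and 9 in litter 121. Of all 14716 genes, 7020, 7258 and 7234 were lower in these litters, so that the members' count in litter 116 was near that of all genes. The 9 include Mdm2 at 0.00, which was -0.042 there with the processed signals and -0.024 with median centring. Without litter 121 the median of the members was 0.072.

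No member passed the adjusted threshold in limma's moderated test with Benjamini-Hochberg adjustment over all kept probes, and 0% of all kept probes did. At an unadjusted p under 0.05 the count was 1 of 10 members, Trp53inp1, beside 6.84% of all kept probes, and it was also the 1 member with a mean change of at least 2-fold at that p, a combination that 0.835% of all kept probes reached. The Lats2-/- and Lats2+/+ extracts overlapped for all 15 member probes, whereas they did not overlap for 6.13% of all kept probes. The litter spread, with a median SD of 0.25 over all kept probes, is the error behind these tests. The arrays of a litter differed by a median range of 0.14 over the member probes, and repeat spots within an array by a mean SD of 0.04 to 0.05 where a probe had them.

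**Figure D1:**
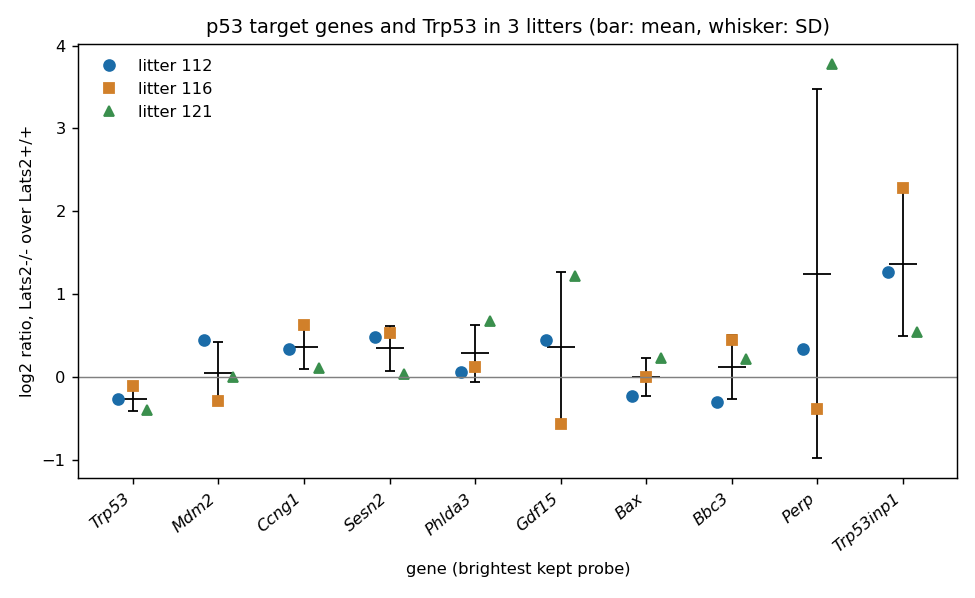
Log2 ratio of Lats2-/- over Lats2+/+ (y axis) for the brightest kept probe of each gene (x axis), with 1 symbol per litter, a bar for the mean and whiskers for the SD over 3 litters. Trp53inp1 lies above 0 in every litter, at 0.54 to 2.28, and the width of Perp comes from litter 121 at 3.78.

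Trp53inp1, a p53-induced gene for a nuclear protein that takes part in p53 phosphorylation, autophagy and cell death, was above 0 in every litter on both of its probes. Its probe A_51_P175580 (mm8, chr4:11101174-11101233) read, as log2 signal and in the litter order 112, 116 and 121, 10.98, 10.46 and 11.55 in Lats2-/- and 9.72, 8.17 and 11.00 in Lats2+/+. The Lats2-/- extract was the higher one in each litter, by 2.40-fold, 4.87-fold and 1.46-fold, although the groups overlapped because both extracts of litter 121 were high. The ratios were 1.26, 2.28 and 0.54, with a mean of 1.36 ± 0.87 (SD, n = 3), a 95% interval of 0.30 to 2.43 and a limma adjusted p = 0.711. Its unadjusted p was under 0.05.

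The other Trp53inp1 probe, A_52_P503387 (chr4:11098180-11098239), gave 1.03, 1.96 and 0.57 and a mean of 1.19 ± 0.71 (limma adjusted p = 0.711), also under 0.05 before adjustment. Both probes were above 0 on 8 of 8 arrays. They differed in how well the dyes matched: the arrays of a litter were within 0.05 of each other for the first probe and 0.51 to 0.61 apart for the other. The mean of the first probe was 0.90 without litter 116 and 1.77 without litter 121, and its unadjusted limma p was above 0.05 without litter 112.

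**Figure D2:**
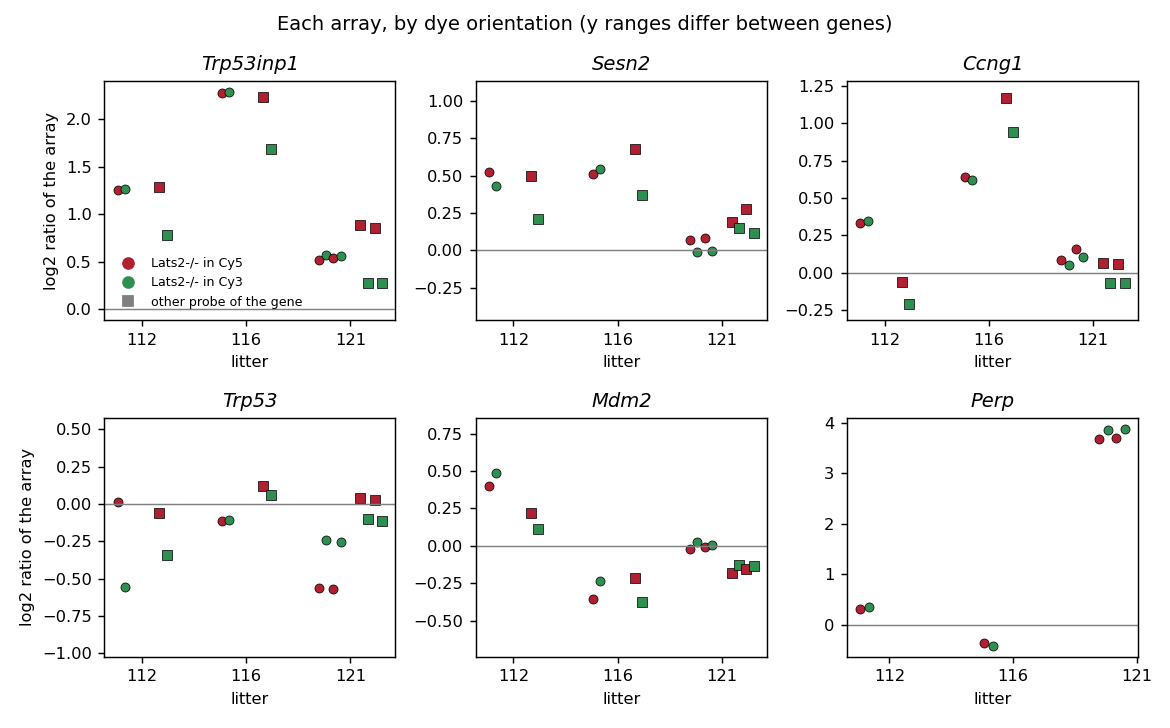
Log2 ratio of Lats2-/- over Lats2+/+ on each array (y axis) by litter (x axis) for 6 genes, with circles for the brightest kept probe, squares for a further probe, red for arrays with Lats2-/- in Cy5 and green for Cy3. Arrays of a litter lie close together beside the distance between litters for Trp53inp1 circles and Perp, while the Trp53 circles differ with the dye in litters 112 and 121.

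Trp53 itself had mean ratios below 0 that did not pass the adjusted threshold. The probe with 10 repeat spots, A_52_P491849 (chr11:69405827-69405886), read 9.62, 10.31 and 9.05 in the Lats2-/- extracts and 9.89, 10.42 and 9.46 in the Lats2+/+ extracts. As the mean of its arrays, the Lats2-/- extract was the lower one in each litter, and litter 116 was the highest for both genotypes. The 2 arrays of litter 112 differed, with ratios of 0.01 and -0.56. The ratios were -0.27, -0.11 and -0.41, with a mean of -0.26 ± 0.15 (limma adjusted p = 0.723), which corresponds to 83.4% of the Lats2+/+ level. The other probe, A_52_P781398 (chr11:69396652-69396710), did not share this pattern, with -0.20, 0.09 and -0.04.

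Mdm2, the ligase that p53 induces and that degrades p53, showed no common direction. Its brightest probe, A_52_P469842 (chr10:117092215-117092274), read 11.99, 10.18 and 11.95 in the Lats2-/- extracts and 11.55, 10.48 and 11.95 in the Lats2+/+ extracts. It was higher in litter 112, lower in litter 116 and level in litter 121, with ratios of 0.45, -0.30 and 0.00 and a mean of 0.05 ± 0.37 (95% interval -0.47 to 0.57). The probe with 10 repeat spots, A_51_P201346 (chr10:117095662-117095721), gave 0.17, -0.29 and -0.15. Both probes were positive in litter 112 and negative in litter 116.

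Among the arrest and stress genes, Ccng1 encodes cyclin G1, which recruits a phosphatase to Mdm2. Its brightest probe, A_52_P612803 (chr11:40592348-40592407), read 12.82, 11.58 and 13.04 in the Lats2-/- extracts and 12.48, 10.95 and 12.94 in the Lats2+/+ extracts. The Lats2-/- extract was higher in each litter and on 8 of 8 arrays, with ratios of 0.34, 0.63 and 0.10 and a mean of 0.36 ± 0.27 (limma adjusted p = 0.716). The other Ccng1 probe, A_51_P161612 (chr11:40594334-40594393), gave -0.13, 1.06 and -0.00, so that the probes disagreed in sign in litters 112 and 121 and shared the large difference in litter 116.

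Sesn2 encodes sestrin 2, a stress-induced inhibitor of mTORC1 signalling. Its brightest probe, A_52_P154710 (chr4:131764135-131764194), read 11.61, 11.64 and 12.03 in the Lats2-/- extracts and 11.14, 11.11 and 12.00 in the Lats2+/+ extracts. Litters 112 and 116 were higher in Lats2-/- by similar amounts and litter 121 was level, with ratios of 0.48, 0.53 and 0.04. The mean was 0.35 ± 0.27 (limma adjusted p = 0.721). The other probe, A_51_P161354 (chr4:131765019-131765078), was above 0 on 8 of 8 arrays, at 0.35, 0.52 and 0.19, and gave 0.35 ± 0.17 with a limma adjusted p = 0.711. The probes had the same mean, and of the pair only this probe had an unadjusted p under 0.05.

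Phlda3 encodes a pleckstrin homology domain protein that restrains Akt. Its probe, A_51_P329928 (chr1:137585476-137585535), read 14.53, 13.72 and 15.12 in the Lats2-/- extracts and 14.47, 13.61 and 14.44 in the Lats2+/+ extracts. Litters 112 and 116 were nearly level, at 0.06 and 0.12, and litter 121 was higher in the extract labelled Lats2-/- by 0.68. The mean of 0.28 ± 0.34 (limma adjusted p = 0.761) was 0.086 without litter 121.

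Gdf15 encodes a secreted stress cytokine of the TGF-beta superfamily. Its probe, A_52_P532982 (chr8:73558561-73558620), read 7.29, 6.28 and 7.89 in the Lats2-/- extracts and 6.85, 6.86 and 6.67 in the Lats2+/+ extracts. These are dim signals, and the Lats2-/- extract of litter 116 was not well above background, which makes it at least 1.49-fold lower there. The ratios of 0.44, -0.58 and 1.22 did not share a sign, and were 0.89, -2.21 and 2.26 with the processed signals, with a mean as reported here of 0.36 ± 0.90 (limma adjusted p = 0.857), and the mean was -0.068 without litter 121.

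The apoptosis genes gave 3 different pictures. Bax, a pore-forming protein of the mitochondrial outer membrane, read 11.79, 11.01 and 11.40 in the Lats2-/- extracts and 12.02, 11.02 and 11.18 in the Lats2+/+ extracts on probe A_51_P254541 (chr7:45334141-45334296, 10 repeat spots). Its ratios ran from -0.23 in litter 112 through -0.01 in litter 116 to 0.22 in litter 121, and the mean was -0.01 ± 0.23 (95% interval -0.39 to 0.37). The interval leaves room for a change of about 0.4 on the log2 scale either way.

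Bbc3 encodes PUMA, a BH3-only activator of Bax. Its probe, A_51_P248122 (chr7:15476576-15476635), read 10.16, 10.73 and 10.88 in the Lats2-/- extracts and 10.47, 10.28 and 10.66 in the Lats2+/+ extracts. Litter 112 was lower and the other litters higher in Lats2-/-, with ratios of -0.31, 0.45 and 0.22 and a mean of 0.12 ± 0.39 (limma adjusted p = 0.912). The mean was -0.044 without litter 116.

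Perp encodes a membrane protein of desmosomes that p53 induces during apoptosis. Its probe, A_51_P317941 (chr10:18546307-18546366), read 6.41, 5.96 and 14.21 in the Lats2-/- extracts and 6.08, 6.35 and 10.43 in the Lats2+/+ extracts. It was near background in litters 112 and 116 and bright in both extracts of litter 121. In litter 112 the Lats2+/+ extract was not well above background and Lats2-/- was at least 1.23-fold higher, and in litter 116 the Lats2-/- extract was not well above background and was at least 1.19-fold lower. In litter 121 the extract labelled Lats2-/- was 13.8-fold higher, on all 4 arrays. With the processed signals the ratios were 2.68, -2.62 and 3.83 in place of 0.33, -0.39 and 3.78. The mean of 1.24 ± 2.23 (limma adjusted p = 0.797) was -0.027 without litter 121.

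Since Perp is abundant in epithelia, the 7 epithelial markers were read beside it. Epcam and Cldn4 were not well above background in any of the 6 extracts, and Krt5 was the 1 marker above it in all 6. The cadherin Cdh1 was above background in 1 extract, where it read 7.16, the Lats2-/- extract of litter 121, against 6.01 to 6.26 elsewhere. The summed marker signal ranged from 519 to 578 in the Lats2-/- extracts and from 502 to 578 in the Lats2+/+ extracts. That same extract also held the highest blood and macrophage marker sum, 3914 against at most 798 in Lats2+/+, with Lyz2 at 11.76. Csf1r was not well above background there on any array, Cd68 was on 1 of 4 arrays, and Ptprc and Adgre1 were below background everywhere. The Lats2-/- extract of litter 121 held the highest neural marker sum too, 7799 against at most 2106 in Lats2+/+, with Nes at 12.52. Map2 and Tubb3 read 9.63 and 9.89 there, against 9.72 and 9.50 in the Lats2+/+ extract of that litter. Sox2, Gfap and Olig2 were below background everywhere. Of the 5 endothelial markers, Pecam1, Cdh5 and Tie1 were below background in all 6 extracts, while Kdr at 6.61 and Tek at 6.68 were highest in that same extract. The part of these differences in the litter 121 values was not tested, and in a bulk extract a change in the share of a cell type and a change in RNA per cell cannot be told apart.

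**Figure D3:**
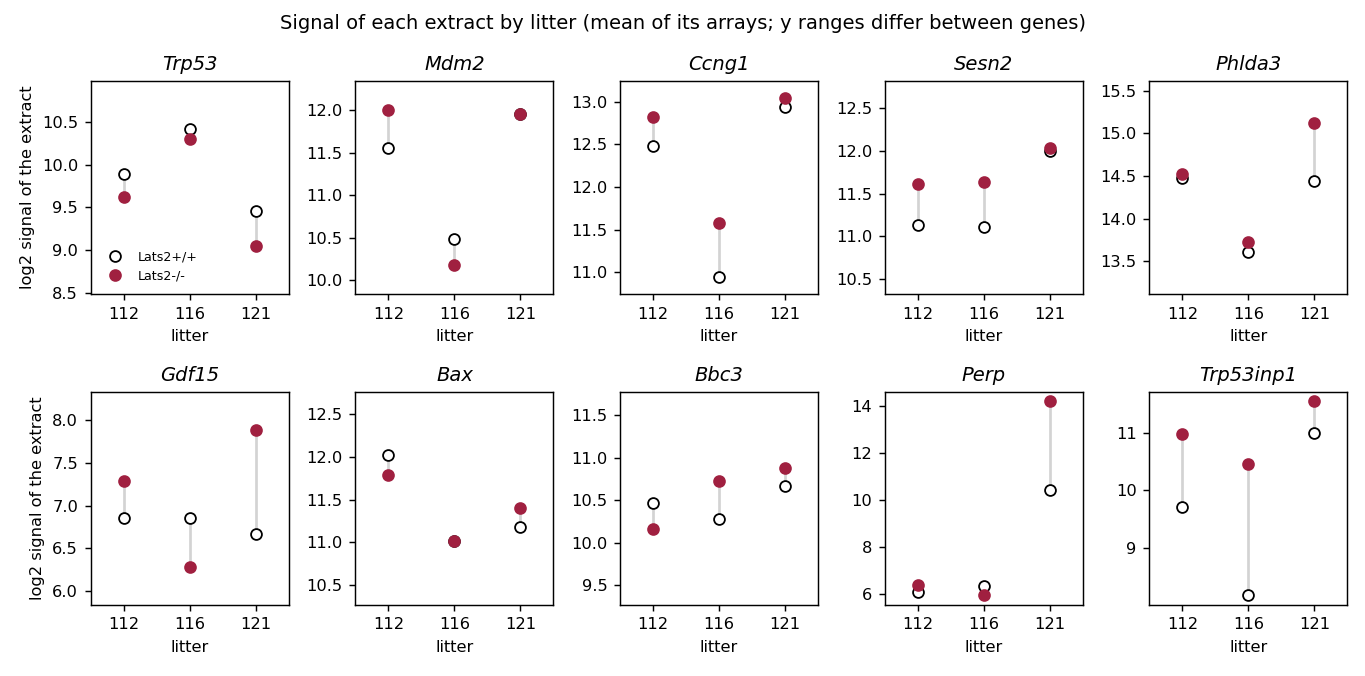
Log2 signal of each extract (y axis, range differs between genes) by litter (x axis), with open circles for Lats2+/+ and filled circles for Lats2-/-, joined within a litter. Mdm2, Ccng1, Phlda3 and Bax are lowest in both extracts of litter 116, and Perp reads 10.43 and 14.21 in litter 121 against at most 6.41 in the other litters.

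Levels were also compared between litters. A pattern seen once these levels were laid out, and therefore given with no test, was that both extracts of litter 116 were the lowest of the 6 for Mdm2, Ccng1, Phlda3 and Bax, which is 4 of 10 members beside 10.4% of all kept probes. Against the mean of the other litters, litter 116 stood at -1.53 for Mdm2, -1.56 for Ccng1, -0.98 for Phlda3 and -0.58 for Bax. The count was 4 of 10 as well with the processed signals of the scanner software. Both extracts of litter 121 were the highest of the 6 for Ccng1, Sesn2, Perp and Trp53inp1, also 4 of 10 members, beside 13.5% of all kept probes, and for 2 of 10 with the processed signals, beside 16.2% of all kept probes on that scale. Litters 112 and 116 lay on 1 slide and litter 121 on the other.

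The same held for some regulators and other targets. Both extracts of litter 116 were the lowest for 18 of the 66 genes on the pathway lists described next, or 27.3%, including Cdkn1a, the cell cycle inhibitor p21, at -0.85. Cdkn2a, the locus of the p16 and p19Arf proteins of which p19Arf restrains Mdm2, read 6.59 and 6.10 in the Lats2-/- and Lats2+/+ extracts of litter 116, against 10.08 to 10.60 in the other 4 extracts. The Lats2+/+ extract of litter 116 was not well above background for Cdkn2a. Both extracts of litter 116 were the highest for 3 of the 66, or 4.55% beside 8.98% of all kept probes, which were Pmaip1, Gadd45a and Sesn1 at 2.82, 1.54 and 0.86 above the other litters, Pmaip1 and Gadd45a being named here after their values were seen. Trp53 too was highest in both extracts of litter 116 on its 10-spot probe, at 0.86 above the other litters, but not on its other probe, at -0.18.

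Lists of 72 further genes of the pathway were read in the same way, as regulators, arrest and repair targets, apoptosis targets, and metabolic and other targets. Of these, 68 were on the array, 5 of them under an older name, and 66 had a kept probe. Their median ratio was 0.13, with 45 genes above 0, or 68.2%, and 21 below. By litter the median was 0.27, 0.0066 and 0.16, and in litter 116 it was 32 of the 66 that were lower. Genes higher in all 3 litters numbered 21, or 31.8%, against 15.9% of all genes, and 4 were lower in all 3, or 6.06%, against 14.1% of all genes. The counts were 17 and 6 with the processed signals, beside 12.3% and 17.9% of all kept probes. With median centring in place of loess they were 17 and 5, beside 12.8% and 16.7%. With limma, none of the 66 passed the adjusted threshold and 9 had an unadjusted p under 0.05, or 13.6% against 7.60% of all genes, 8 of them higher and 1 lower. Without litter 112 the count at an unadjusted p was 5.

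The target lists and the regulators differed in their medians. The 18 regulators had a median of -0.07, the 17 arrest and repair targets 0.18, the 15 apoptosis targets 0.21 and the 16 metabolic and other targets 0.26. Among the regulators 8 were above 0 and 10 below, whereas the counts were 13 and 4 for arrest and repair, 13 and 2 for apoptosis, and 11 and 5 for the metabolic list. The difference between the lists was not tested.

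Hipk2, a kinase that phosphorylates p53 and favours apoptosis, had the smallest p of these genes. Its log2 signal was 10.75, 10.48 and 11.38 in the Lats2-/- extracts and 10.07, 9.59 and 10.36 in the Lats2+/+ extracts, higher within each litter. The ratios were 0.68, 0.89 and 1.02 with a mean of 0.87 ± 0.17, and limma gave an adjusted p = 0.659. Mdm4, the partner of Mdm2, had mean ratios below 0 on all 5 of its probes, from -0.09 to -0.21, and on the brightest gave 0.06, -0.15 and -0.39. Cdkn2a gave -0.42 in litter 112 and 0.14 in litter 121, and in litter 116, where the Lats2+/+ extract was not well above background, Lats2-/- was at least 1.41-fold higher.

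Of the arrest and repair targets, 3 had an unadjusted limma p under 0.05, each with an adjusted p = 0.711. Btg2, an antiproliferative cofactor, gave 2.60, 0.80 and 0.61. Sesn1, the sestrin related to Sesn2, gave the narrow range of 0.57, 0.35 and 0.48 (mean 0.47 ± 0.11). Sertad1, a regulator of cyclin-dependent kinase 4, gave 0.81, 0.42 and 0.42. These genes were above 0 in every litter, which selection by p favours, as were 7 of the 17 genes on the list. Cdkn1a, the best known arrest target, was named whatever its p. It was higher in litters 112 and 116, at 0.51 and 0.47, and lower in litter 121, at -0.58. The mean of Cdkn1a was 0.13 ± 0.62 (limma adjusted p = 0.936).

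The remaining lists held 5 genes at an unadjusted p under 0.05. Zmat3, a zinc finger RNA-binding protein, gave 0.35, 0.60 and 0.20, and Abhd4, a lipid hydrolase, gave 0.84, 0.46 and 0.46. Dusp1, a phosphatase of MAP kinases, gave 1.39, 0.28 and 0.86, and Cpt1c, a carnitine palmitoyltransferase, gave 0.49, 0.46 and 0.22. The glutaminase Gls2 was the exception in direction, at -0.64, -0.69 and -0.20. All 5 had a limma adjusted p = 0.711.

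**Figure D4:**
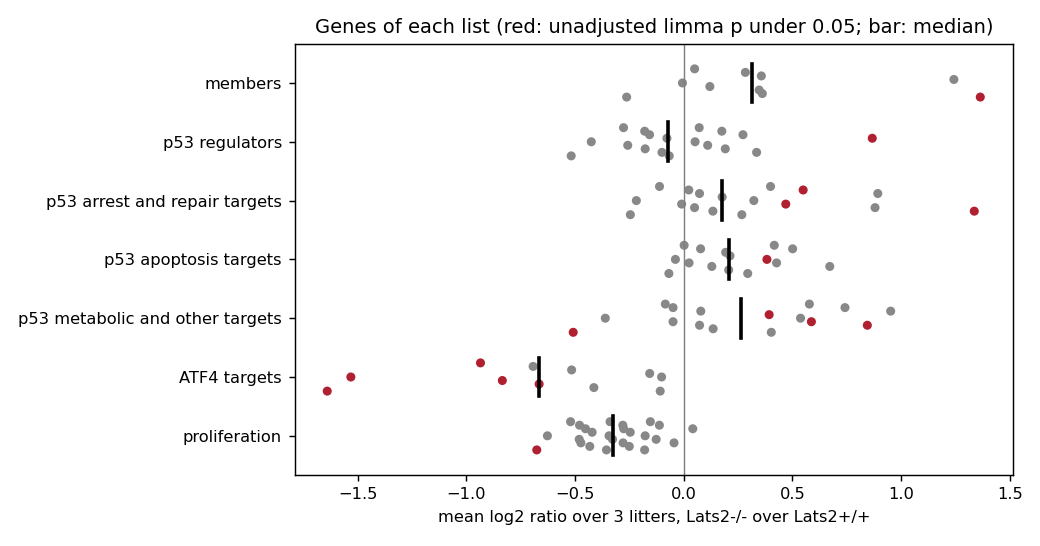
Mean log2 ratio of Lats2-/- over Lats2+/+ over 3 litters (x axis) for each gene with a kept probe in each list (y axis), with red points for an unadjusted limma p under 0.05 and a bar at the list's median. The medians are 0.32 for the members, 0.18 to 0.26 for the target lists, -0.07 for the regulators, -0.67 for ATF4 targets and -0.33 for proliferation genes.

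Some members respond to other regulators as well: Sesn2 and Gdf15 are also targets of ATF4, the transcription factor of the integrated stress response. The 11 kept ATF4 targets, read beside them, all had a mean ratio below 0, with a median of -0.67. The highest was Ddit3 at -0.10 and the lowest was Cth, an enzyme of cysteine synthesis, at -1.64. With limma, 5 of the 11 were lower at an unadjusted p under 0.05, beside 508 of all 14716 genes, and 0 at the adjusted threshold.

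Proliferation genes, many of which p53 lowers through p21, had mean ratios below 0 in 24 of 25 cases, beside 6920 of all 14716 genes. With limma, 1 of the 25 had an unadjusted p under 0.05, or 4.0% beside 7.60% of all genes, and 0 passed the adjusted threshold. The median of the proliferation genes was -0.33. This median was -0.58 in litter 112 and -0.55 in litter 116 but 0.27 in litter 121. There 22 of 25 were higher in the extract labelled Lats2-/-, beside 7482 of all 14716 genes. Cdkn1a ran the other way in each litter, at 0.51, 0.47 and -0.58, and a link to the proliferation genes was not tested. The lowest proliferation gene was Mcm6, a subunit of the replicative helicase, at -0.68 (limma adjusted p = 0.711, unadjusted under 0.05), and the highest was Cdc20, an activator of the anaphase-promoting complex, at 0.04.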

How the data were processed

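The authors hybridised 6 MEF extracts on 8 two-colour Agilent arrays and extracted the scans with Agilent Feature Extraction (10.7.3.1 per the file headers, 10.5.1.1 per the submitters' processing notes). The deposited scanner files hold mean and local background intensity per spot on a linear scale, not normalized, and the log10 ratio of dye-normalized processed signals. The deposited value table holds that log10 ratio turned to Lats2-/- over Lats2+/+, within 0.00500.

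Here intensities were corrected with normexp (offset 50) with limma 3.58.1 (R 4.3.3). All control spots and 860 outlier spots were left out, and loess was run within arrays. Repeat spots, then the arrays of a litter over both dye orientations, were averaged. The numbers were read as litters because the study used littermate controls, and the pairing is within array and litter. Probes were kept if well above background in 2 of 3 extracts of either genotype. Limma's moderated test (lmFit, eBayes, two-sided) of 3 litter ratios against 0 was run over all kept probes, with Benjamini-Hochberg adjustment at 0.05; p-values measure only the spread between these clones. Log2 signals followed Aquantile. A fold against an extract not well above background is written as at least N-fold, set against the higher of the probe's own signal and the dimmest signal of any probe well above it. The fit was checked on simulated data.

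The members and lists were chosen with earlier results of these data known. Named were all members, Lats2, Cdkn1a, Mdm4 and Cdkn2a, pathway genes whose unadjusted p was under 0.05, and the highest and lowest ATF4 and proliferation genes. Markers were fixed for fibroblasts, epithelium, endothelium, blood and macrophages, and neural cells. Promoters were searched in Python with the p53 decamer as a fixed pattern. Probe positions are those of the scanner files (mm8), and promoter positions are on GRCm38.p6. Alternatives covered background correction, normalization, the filter, blocks, the methods' t-test and leaving out each litter. The number of litters, 3, limits the precision.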

Additional observations from a re-analysis of the deposited data

How the results depend on the processing

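The ratios of Ccng1, Sesn2, Phlda3 and Trp53inp1 stayed above 0 and that of Trp53 below 0 under all 14 alternatives run. Mdm2 turned to -0.021 as the mean over its probes and Bax to 0.052 with slide as a random block. Leaving out each litter in turn gave -0.15 to 0.22 for Mdm2, -0.12 to 0.11 for Bax, -0.044 to 0.33 for Bbc3, -0.027 to 2.06 for Perp and -0.068 to 0.83 for Gdf15. It gave 0.072 to 0.33 for the median of the members, 0 to 2 for the members at an unadjusted p under 0.05 and 5 to 12 for the pathway genes.

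Members at an unadjusted p under 0.05 numbered 1 in the fit reported, 2 with median centring and 2 with no filter, Trp53 being the added member in both, 4 with litter as a random block, 3 with a dye term added, 5 with slide as a random block, 0 with no replicate block (extracts not paired by litter) and 0 by the methods' t-test. Probes at that level numbered 1549 of 22642 as reported, 2623 with no filter, where all 41174 were tested, 2998 with the litter block, 2852 with the dye term, 4030 with the slide block and 554 with no replicate block. At the adjusted threshold, 341, 203 and 717 probes passed with the litter block, the litter block with a dye term and the slide block. Of the members, 1 passed with each litter block, Trp53inp1, at limma adjusted p = 0.0229 and 0.0423. These block fits count each array as an observation, although arrays of a litter share their extracts. The strict filter left out Perp and Gdf15. With median centring 3 members, not 4, were higher in all 3 litters, Phlda3 being lost. The counts of members and pathway genes higher in all 3 litters, of pathway genes at an unadjusted p and of levels in litter 116 were added after seeing the data.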
